A study of Saccharomyces cerevisiae with 36 samples.

Results

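The enzymes of histidine biosynthesis were followed in budding yeast as cells were moved from rich medium to medium without amino acids, in a wild-type strain and in strains with a mutation in Eco1, the acetyltransferase that makes cohesin cohesive, or in Scc2, which helps to load cohesin onto DNA. The genes were chosen by name, as the histidine pathway genes other than the marker gene HIS3, and 6 genes met that rule, HIS1, HIS2, HIS4, HIS5, HIS6 and HIS7, each with 1 probe set among the 5716 tested. The rule uses names and no measured value, though the set was proposed with earlier results of these data known. HIS3 was left out because every strain, WT included, carries the marker allele his3-1.

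RNA was measured on 36 arrays, with 3 arrays for each of 3 strains at 0, 15, 35 and 55 min after the shift. The strains were WT, eco1-W216G and scc2-D730V, all haploid MATa cells of the W303 background. All of them, WT included, carry ura3-1, leu2,3-112, his3-1, trp1-1, ade2-1, can1-100 and a deletion of BAR1, and each mutant allele was placed at its own locus with the hygromycin resistance marker HYG. Cells at 0 min were growing exponentially in YPD supplemented with CSM, an amino acid mixture, and were then pelleted and resuspended in minimal medium without amino acids. As the background allele his3-1 affects a step of this same pathway, the strains are a model of transcription under starvation and not of intact histidine synthesis.

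Histidine is built from phosphoribosyl pyrophosphate and ATP along a single unbranched pathway. Unlike in bacteria, the yeast genes lie apart from each other in the genome, and they share the activator Gcn4, whose protein is made in larger amounts when amino acids run short. HIS4 and HIS7 are also activated by Bas1 with Pho2, which tie histidine synthesis to that of purines, since the reaction carried out by His7 releases AICAR, an intermediate of purine synthesis. In RefSeq's assembly R64, HIS1 (YER055C) lies at chrV:264892-265785, HIS2 (YFR025C) at chrVI:203743-204750, HIS4 (YCL030C) at chrIII:65934-68333, HIS5 (YIL116W) at chrIX:142928-144085, HIS6 (YIL020C) at chrIX:314035-314820 and HIS7 (YBR248C) at chrII:714807-716465.

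The array medians lay between 10.97 and 11.16 on the log2 scale, and arrays of a group correlated at 0.958 to 0.994. The deleted BAR1 read 4.44 to 4.89 on every array, MATa genes were bright (MFA1 at 13.16 or above) and MF(ALPHA)1, which MATa cells do not express, read 4.92 to 6.97. ECO1 itself was lower in eco1-W216G than in WT, at all 4 times, while SCC2, which carries a point mutation in scc2-D730V, was not called in that strain. A single array, scc2-D730V replicate 1 at 0 min, stood apart from its group for HIS4 and HIS5, and its effect on these genes is given by leaving out that culture. A culture here means the arrays of 1 replicate number in a strain, though the labels do not say that equal numbers mark 1 culture.

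After the shift to medium without amino acids, 5 of the 6 histidine genes rose in every strain and the sixth, HIS6, fell. The shift also pelleted the cells and replaced rich with minimal medium, and the parts of these steps cannot be told apart here. HIS5 and HIS4 moved farthest, HIS5 by 2.98 and HIS4 by 2.73 in WT at 55 min on the log2 scale, and HIS1 moved least, by 0.77. At 15 min in WT, 4 genes were called higher and 1 lower at an adjusted p under 0.05 by limma, where 37.2% of all probe sets were called higher and 36.5% lower. At 35 and 55 min the counts were 5 higher and 1 lower, against a background of 36.9% and 36.2% higher and 35.8% and 35.1% lower. The median difference of the 6 genes in WT was 0.71, 1.02 and 1.43 at 15, 35 and 55 min, and that of all probe sets 0.02, 0.03 and 0.03.

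**Figure D1:**
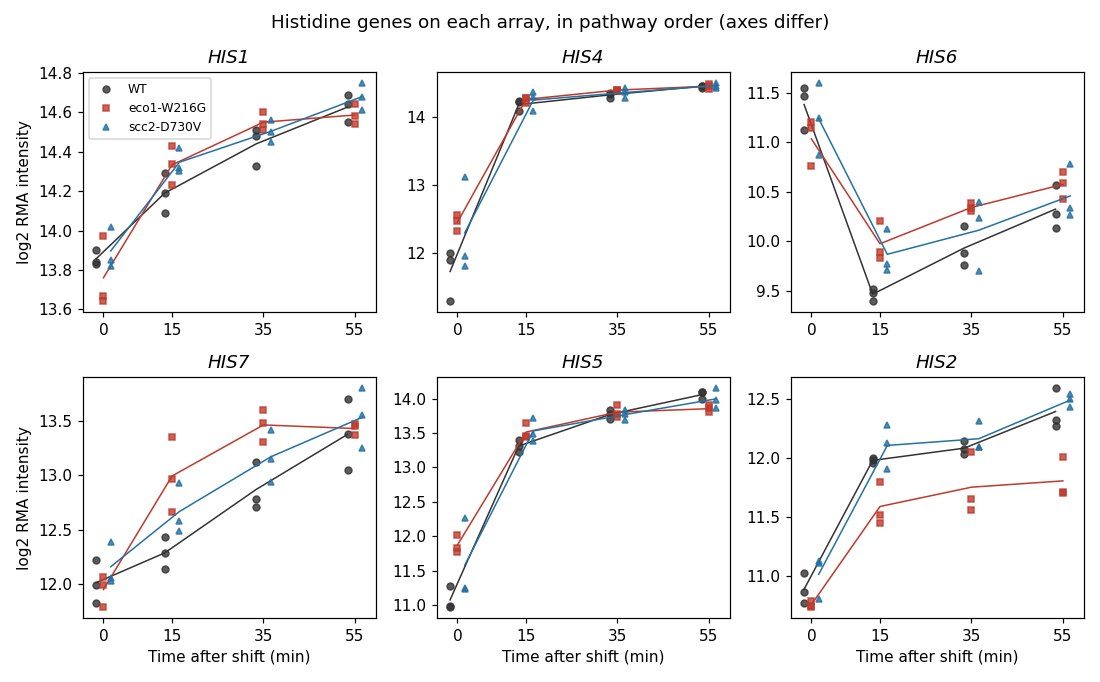
Log2 intensity of each histidine gene on each of the 36 arrays (y axis, scales differ between panels) against minutes after the shift (x axis), with lines through the group means and strains set slightly apart. HIS6 falls and the other genes rise, and the mean of HIS2 in eco1-W216G lies below those of the other strains from 15 min on.

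HIS1 encodes ATP phosphoribosyltransferase, the committed step of the pathway and the one inhibited by histidine. On the WT arrays its log2 intensity was 13.83, 13.84 and 13.90 at 0 min. It was 14.29, 14.09 and 14.19 at 15 min, and 14.69, 14.55 and 14.64 at 55 min. Every WT array at 15 and 55 min was thus above every one at 0 min, in a gene that was already bright in rich medium. The WT log2 difference from 0 min was 0.33 ± 0.09 at 15 min, 0.59 ± 0.09 at 35 min and 0.77 ± 0.09 at 55 min (± SE from limma, n = 3 arrays a group, adjusted p by limma 0.0016, 1.6e-06 and 1.6e-08), or 1.26-fold, 1.5-fold and 1.71-fold. In eco1-W216G the arrays were at 13.67, 13.97 and 13.64 at 0 min and at 14.54, 14.64 and 14.58 at 55 min. Those of scc2-D730V were at 14.02, 13.85 and 13.82 and then at 14.75, 14.61 and 14.68. The strains overlapped at the start and at the end, and no HIS1 difference between a mutant and WT was called at any time. The eco1-W216G differences from WT lay between -0.09 and 0.14, with 95% intervals between -0.28 and 0.33.

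HIS4 encodes a multifunctional enzyme that opens the purine ring of the early intermediate and also carries out the last oxidation to histidine. Its WT arrays read 12, 11.29 and 11.90 (0 min) and 14.08, 14.24 and 14.22 (15 min). Little followed, with 14.35, 14.34 and 14.28 (35 min) and 14.43, 14.46 and 14.46 (55 min). The step at 15 min was 2.45 ± 0.19 on the log2 scale, or 5.48-fold (adjusted p by limma 5.9e-12), and 2.73 ± 0.19 was reached at 55 min. No change of HIS4 between 15 and 35 min was called in WT (0.14 ± 0.19, adjusted p by limma 0.68). After the shift the group means of all 3 strains lay between 14.18 and 14.46, and the brightest value of any probe set in the data was 15.42, so a limit of the scanner's or probe's range near these levels was not tested. The same holds for HIS1, whose scc2-D730V arrays reached 14.75, and for its small changes.

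HIS5 encodes the aminotransferase that makes histidinol phosphate. On the WT arrays it read 11.27, 10.98 and 10.97 (0 min), 13.40, 13.31 and 13.22 (15 min), and 14.09, 13.99 and 14.09 (55 min). The groups at these times did not overlap, and each later one was higher. The log2 difference from 0 min was 2.24 ± 0.16 at 15 min, 2.70 ± 0.16 at 35 min and 2.98 ± 0.16 at 55 min, the last being 7.91-fold (adjusted p by limma 4.4e-15). HIS4 and HIS5 followed each other closely over the 12 group means (Pearson r = 0.99), a description over groups that share a time course.

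HIS7 encodes the glutamine amidotransferase and cyclase that closes the imidazole ring and releases AICAR. It was the slow gene of the pathway in WT, with arrays at 11.99, 12.22 and 11.83 at 0 min and at 12.29, 12.14 and 12.43 at 15 min. At 35 min they were at 13.12, 12.71 and 12.78, and at 55 min at 13.70, 13.05 and 13.38. The arrays of 0 and 15 min overlapped, and those of 35 and 55 min lay above both. The difference from 0 min was 0.27 ± 0.18 at 15 min (adjusted p by limma 0.17), 0.86 ± 0.18 at 35 min (adjusted p 1.2e-04) and 1.36 ± 0.18 at 55 min (adjusted p 1.3e-07).

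Between 15 and 35 min in WT, HIS7 was called higher (0.59 ± 0.18, adjusted p by limma 0.031) and no other member was, where 7.63% of probe sets were called higher and 5.58% lower. Among the others, HIS5 (0.46 ± 0.16), HIS6 (0.47 ± 0.19) and HIS1 (0.25 ± 0.09) had adjusted p of 0.062, 0.10 and 0.066. The HIS7 call was lost without WT replicate 1, 2 or 3 or eco1-W216G replicate 3, with adjusted p of 0.35, 0.085, 0.075 and 0.052. Without WT replicate 1 the difference was 0.46.

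HIS2 encodes histidinol phosphatase. Its WT arrays read 10.87, 11.03 and 10.77 (0 min), 11.98, 11.96 and 12 (15 min), 12.03, 12.08 and 12.14 (35 min), and 12.59, 12.32 and 12.27 (55 min). All arrays after the shift were above all of those at 0 min. The log2 difference from 0 min was 1.09 ± 0.13 at 15 min, 1.19 ± 0.13 at 35 min and 1.5 ± 0.13 at 55 min (2.13-fold, 2.28-fold and 2.83-fold, with adjusted p by limma of 1.4e-08 or less).

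HIS6 encodes the isomerase that acts between His4 and His7, and it was the single histidine gene that fell. The WT arrays went from 11.47, 11.55 and 11.12 at 0 min to 9.39, 9.52 and 9.48 at 15 min. They then stood at 9.88, 10.15 and 9.76 at 35 min and 10.57, 10.13 and 10.27 at 55 min. All arrays after the shift were below all arrays at 0 min, with the lowest values at 15 min. HIS6 fell by 1.91 ± 0.19 on the log2 scale at 15 min, 3.77-fold (adjusted p by limma 4.3e-10). Against 0 min it fell by 1.45 at 35 min and fell by 1.05 at 55 min, when it was still 2.08-fold lower (adjusted p 1.4e-05).

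Both mutants showed the same directions in all 6 genes. In eco1-W216G, 5 genes were called higher and 1 lower at 15, 35 and 55 min, against a background of 23.5%, 23.4% and 23.7% of probe sets higher and 27.0%, 26.6% and 25.8% lower. In scc2-D730V the counts were also 5 and 1 at each time, where 36.6%, 36.9% and 36.2% of probe sets were called higher and 34.8%, 33.6% and 32.7% lower. At 55 min HIS5 had risen by 1.99 in eco1-W216G and 2.42 in scc2-D730V, HIS4 by 2.00 and 2.17, and HIS2 by 1.05 and 1.48 on the log2 scale. HIS7 had risen by 1.48 and 1.37 and HIS1 by 0.82 and 0.79. HIS6 fell by 0.46 ± 0.19 in eco1-W216G (adjusted p by limma 0.044) and by 0.78 ± 0.19 in scc2-D730V (adjusted p 6.2e-04).

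Some of these calls were lost when 1 culture was left out, often with little change in the difference. HIS6 in eco1-W216G at 55 min was no longer called without any 1 of eco1-W216G replicates 1, 2 and 3. The differences were then -0.42, -0.44 and -0.52 (adjusted p by limma 0.18, 0.17 and 0.082). It was also lost without WT replicate 1 or 3 (-0.46 and adjusted p 0.055 for each), whose arrays are not in that contrast but share its estimate of spread. At 35 min it was lost without eco1-W216G replicate 2 (a difference of -0.59, adjusted p 0.063). HIS7 in scc2-D730V at 15 min (0.50, adjusted p 0.014) was lost without scc2-D730V replicate 3 (0.48, adjusted p 0.068). Leaving out scc2-D730V replicate 1 kept all 6 calls at each time in that strain and moved HIS4 at 15 min from 1.95 to 2.44 and HIS6 at 55 min from -0.78 to -1.13. Without it the changes at 55 min were 2.68 for HIS5, 2.56 for HIS4, 1.51 for HIS2, 1.35 for HIS7 and 0.81 for HIS1.

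**Figure D2:**
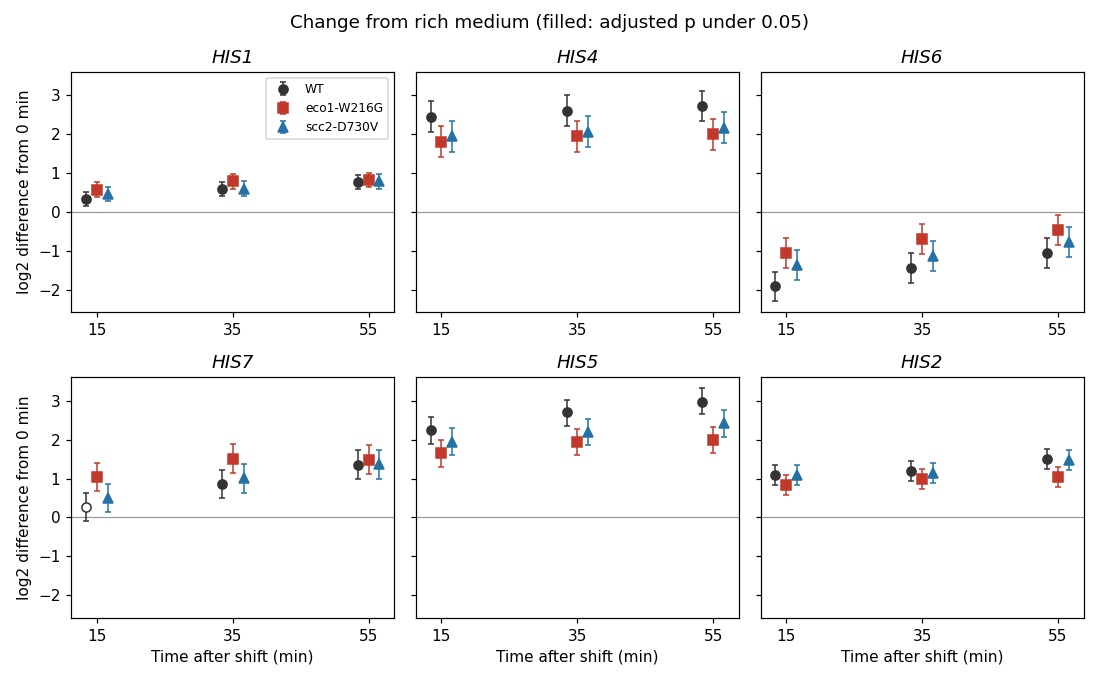
Log2 difference from 0 min (y axis, 95% interval from limma) at 15, 35 and 55 min (x axis) in the 3 strains, filled where the adjusted p is under 0.05. HIS7 in WT at 15 min is the only open symbol, and the HIS6 differences are all below 0.

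Rich medium itself separated eco1-W216G from WT at HIS4 and HIS5, before any starvation. HIS4 read 12.33, 12.47 and 12.56 on the eco1-W216G arrays at 0 min, against 12, 11.29 and 11.90 in WT. HIS5 read 11.77, 12.01 and 11.83, against 11.27, 10.98 and 10.97. In both genes every mutant array was above every WT array. The differences were 0.73 ± 0.19 for HIS4 (1.66-fold, adjusted p by limma 0.0066) and 0.79 ± 0.16 for HIS5 (1.73-fold, adjusted p 5.9e-04). The remaining 4 genes were not called, with HIS1 at -0.09, HIS2 at -0.13, HIS7 at -0.06 and HIS6 at -0.34, so that 2 of 6 genes were higher and 0 lower where 13.7% of probe sets were called higher and 11.5% lower. The median difference was -0.08 over the 6 genes and -0.08 over all probe sets. The HIS4 call was lost without WT replicate 2, whose array at 0 min was the lowest (a difference of 0.51, adjusted p 0.10), or without eco1-W216G replicate 3 (0.67, adjusted p 0.059). The HIS5 call was kept without any 1 culture.

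In scc2-D730V at 0 min, HIS4 read 13.12, 11.81 and 11.96 and HIS5 12.26, 11.24 and 11.23. Replicate 1 was high in both and the other 2 arrays lay within the WT range. It was also the lowest array of its group for HIS6 (10.87, against 11.60 and 11.24). Over the 2127 probe sets called higher and the 2089 called lower at 15 min after the shift in WT, the array deviated from the mean of its group's other arrays. The median deviations were 0.09 and -0.14. Arrays of other groups deviated as far, such as eco1-W216G replicate 3 at 0 min (0.10 and -0.14), so this array was not unusual by that measure. The scc2-D730V arrays of replicate 1 deviated the other way and farther later on, by -0.26 and 0.15 at 35 min and by -0.27 and 0.18 at 55 min. The differences from WT were 0.57 ± 0.19 for HIS4 and 0.50 ± 0.16 for HIS5 (adjusted p by limma 1 for each), and without replicate 1 they were 0.16 and 0.16. No histidine gene was called between scc2-D730V and WT at 0, 15, 35 or 55 min, where 2 probe sets, SAS4 and COS8, were called at each time (0% higher and 0.0350% lower). At an unadjusted p under 0.05, 92, 173, 69 and 20 probe sets passed, and 2, 2, 0 and 0 histidine genes.

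The difference between the mutants at 0 min was not called for any histidine gene (HIS4 and HIS5 included), where 12.9% of probe sets were called higher in eco1-W216G and 9.15% lower. Without scc2-D730V replicate 1 it was called for 2, both higher in eco1-W216G, and the share of all probe sets in that fit is not given.

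**Figure D3:**
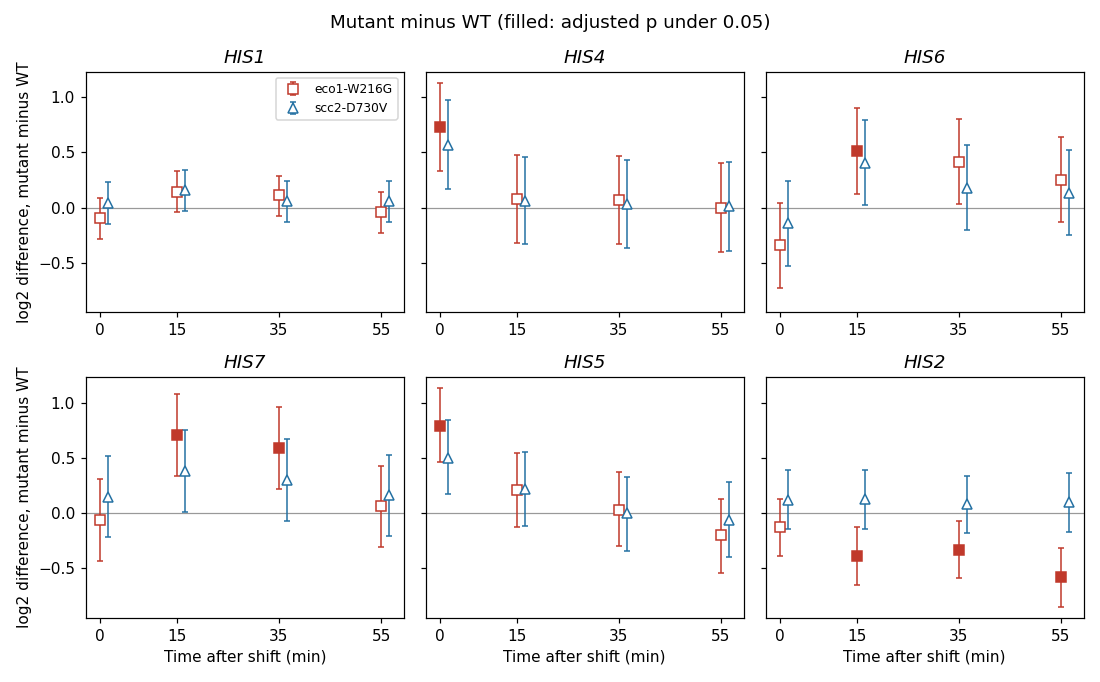
Log2 difference of eco1-W216G and of scc2-D730V from WT (y axis, 95% interval from limma) at 0, 15, 35 and 55 min (x axis), filled where the adjusted p is under 0.05. Filled symbols belong to eco1-W216G alone, at HIS4 and HIS5 in rich medium, at HIS6 and HIS7 early in starvation, and at HIS2, below 0, after the shift.

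HIS4 and HIS5 thus started higher in eco1-W216G and were not called apart from WT after the shift. The eco1-W216G arrays of HIS4 read 14.28, 14.21 and 14.28 (15 min) and 14.46, 14.41 and 14.48 (55 min), overlapping WT at each of these times. At 35 min they read 14.40, 14.38 and 14.40, all above WT. Those of HIS5 read 13.64, 13.44 and 13.46 at 15 min, above all WT arrays. At 55 min they read 13.90, 13.80 and 13.86, below all WT arrays (a difference of -0.20 ± 0.16, adjusted p by limma 0.35). The test of the change in eco1-W216G minus the change in WT gave -0.59 ± 0.23, -0.76 ± 0.23 and -1.0 ± 0.23 for HIS5 at 15, 35 and 55 min (adjusted p by limma 0.048, 0.0093 and 0.0016). HIS4 gave -0.65, -0.66 and -0.73, each ± 0.28 (adjusted p 0.066, 0.055 and 0.042). These 3 contrasts share the arrays of 0 min. The HIS5 value at 15 min was lost without any 1 WT or eco1-W216G culture (adjusted p 0.061 to 0.18) and that at 35 min without WT replicate 3 (-0.68, adjusted p 0.061). The HIS4 value at 55 min was lost without WT replicate 2 (-0.51, adjusted p 0.24), WT replicate 3 (-0.81, 0.073) or eco1-W216G replicate 1 (-0.80, 0.085), 2 (-0.70, 0.11) or 3 (-0.69, 0.15). Without scc2-D730V replicate 1, the HIS4 changes at 15 and 35 min were called as well (adjusted p 0.0029 and 0.0022).

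HIS7 rose sooner in eco1-W216G. Its arrays read 11.99, 12.07 and 11.79 (0 min), 13.35, 12.66 and 12.97 (15 min), 13.31, 13.60 and 13.48 (35 min), and 13.37, 13.47 and 13.45 (55 min). At 15 and 35 min every one of them was above every WT array, and at 0 and 55 min the strains overlapped. The difference from WT was 0.71 ± 0.18 at 15 min (1.63-fold, adjusted p by limma 0.0024) and 0.59 ± 0.18 at 35 min (1.51-fold, adjusted p 0.0083), and 0.06 ± 0.18 at 55 min. The change from 0 min differed from that of WT by 0.77 ± 0.26 at 15 min and 0.66 ± 0.26 at 35 min (adjusted p 0.019 and 0.040). The difference of changes was lost at 15 min without WT replicate 2 (0.59, adjusted p 0.11) or eco1-W216G replicate 1 or 3 (0.61 and 0.70, adjusted p 0.11 and 0.10), and at 35 min without WT replicate 2 or 3 or eco1-W216G replicate 2 or 3 (0.47, 0.70, 0.65 and 0.57, adjusted p 0.19, 0.074, 0.074 and 0.17). The scc2-D730V arrays of HIS7 lay between, at 12.93, 12.49 and 12.58 at 15 min, all above WT, with a difference of 0.38 ± 0.18 (95% interval 0.01 to 0.75, adjusted p 1). The mutants were not told apart there (eco1-W216G minus scc2-D730V 0.33 ± 0.18, adjusted p 0.16), while without scc2-D730V replicate 1 that difference was 0.46 (adjusted p 0.047).

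HIS6 fell less in eco1-W216G. Its arrays there read 11.14, 11.20 and 10.76 (0 min), 10.20, 9.83 and 9.89 (15 min), 10.39, 10.30 and 10.33 (35 min), and 10.59, 10.70 and 10.43 (55 min). They were above all WT arrays at 15 and 35 min. The difference from WT was 0.51 ± 0.19 at 15 min (1.42-fold, adjusted p by limma 0.030) and 0.41 ± 0.19 at 35 min (adjusted p 0.073). The call at 15 min was lost without any 1 WT replicate or without eco1-W216G replicate 1 or 3 (0.40 to 0.55, adjusted p 0.052 to 0.18), and HIS6 was called at 35 min without scc2-D730V replicate 1 or 2 (adjusted p 0.044 and 0.048). The difference from WT at 0 min, -0.34 and not called, is part of the next 2 values. The fall from 0 min was smaller than that of WT by 0.85 ± 0.27 at 15 min and by 0.76 ± 0.27 at 35 min (adjusted p by limma 0.013 and 0.023). That at 15 min was lost without WT replicate 1 (0.77, adjusted p 0.063) or eco1-W216G replicate 1 (0.79, 0.063) or 3 (0.76, 0.077), and that at 35 min without WT replicate 1 (0.68, 0.084) or eco1-W216G replicate 1 (0.78, 0.053) or 3 (0.63, 0.12). In scc2-D730V HIS6 read 9.71, 10.12 and 9.77 at 15 min, all above WT, with a difference of 0.40 ± 0.19 (95% interval 0.02 to 0.79, adjusted p 1).

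HIS2 was the histidine gene that stayed lower in eco1-W216G once starvation began. Its arrays read 10.74, 10.79 and 10.75 (0 min), 11.80, 11.52 and 11.45 (15 min), 11.56, 12.05 and 11.65 (35 min), and 11.71, 12.01 and 11.70 (55 min). At 15 and 55 min they were below all WT arrays, and at 35 min replicate 2 overlapped WT. The difference from WT was -0.39 ± 0.13 at 15 min, -0.33 ± 0.13 at 35 min and -0.58 ± 0.13 at 55 min, 1.31-fold, 1.26-fold and 1.5-fold lower (adjusted p by limma 0.015, 0.036 and 7.9e-04). The value at 55 min was kept without any 1 culture. That at 15 min was lost without WT replicate 3 (-0.38, adjusted p 0.053) or eco1-W216G replicate 3 (-0.32, 0.10), and that at 35 min without any 1 WT replicate or without eco1-W216G replicate 1 or 3 (-0.23 to -0.35, adjusted p 0.058 to 0.19).

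HIS2 also set the mutants apart. The scc2-D730V arrays read 12.28, 11.91 and 12.13 (15 min), 12.09, 12.31 and 12.09 (35 min), and 12.54, 12.43 and 12.50 (55 min), all above the eco1-W216G arrays of the same time. The difference, eco1-W216G minus scc2-D730V, was -0.52 at 15 min, -0.41 at 35 min and -0.68 at 55 min, each ± 0.13 (adjusted p by limma 0.0023, 0.012 and 2.5e-04), where 20.4%, 22.8% and 18.0% of probe sets were called lower. It was the single member called between the mutants. The call at 35 min was lost without scc2-D730V replicate 2 (-0.34, adjusted p 0.075) or eco1-W216G replicate 1 or 3 (-0.31 and -0.36, adjusted p 0.087 and 0.0715). The change of HIS2 from 0 min was not called as different from that of WT (-0.26, -0.20 and -0.45 at 15, 35 and 55 min, adjusted p 0.28, 0.39 and 0.054).

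Counted over the 6 genes, eco1-W216G against WT gave 2 higher and 1 lower at 15 min, then 1 and 1, and at 55 min 0 and 1. The background was 18.9% higher and 22.7% lower (15 min), 20.1% and 26.8% (35 min), and 17.0% and 21.2% (55 min). The median difference of the 6 genes was 0.17, 0.09 and -0.02, and that of all probe sets -0.08, -0.09 and -0.09. For the difference of changes the counts were 2 higher and 1 lower in the 15 and 35 min contrasts, with 0 and 2 in the last, where 17.6%, 19.9% and 15.7% of probe sets were called higher and 18.3%, 21.9% and 17.2% lower. Counts of 0 to 2 among 6 genes are near these background shares. No member and no probe set (0%) was called for the change of scc2-D730V minus that of WT, with 73, 109 and 39 probe sets and 0, 1 and 1 members at an unadjusted p under 0.05 by limma.

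Ordered by level, all 3 groups at 0 min came lowest for HIS1, HIS2, HIS4, HIS5 and HIS7 and highest for HIS6. Between neighbours in that order the arrays mostly overlapped, in 10 of 11 neighbouring pairs for HIS1 and HIS7 and in 9 of 11 for HIS2, HIS4, HIS5 and HIS6. For HIS4 the pairs that did not overlap were eco1-W216G at 0 min (mean 12.45) with WT at 15 min (14.18), and eco1-W216G at 35 min (14.39) with the same strain at 55 min (14.45). For HIS2 they were scc2-D730V at 0 min (11.01) with eco1-W216G at 15 min (11.59), and WT at 15 min (11.98) with WT at 35 min (12.08). The eco1-W216G groups at 15, 35 and 55 min came next in order, below every starved group of WT and scc2-D730V. Group means spanned 0.92 for HIS1, 1.58 for HIS7, 1.73 for HIS2, 1.92 for HIS6, 2.73 for HIS4 and 2.99 for HIS5 on the log2 scale.

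HIS3, the gene of the dehydratase step that carries the his3-1 allele, had the pattern closest to the mean of the 6 genes over the 12 groups (Pearson r = 0.995 among 3290 genes with a range of at least 1). Its group means ran from 10.64 in WT at 0 min to 13.84 in scc2-D730V at 55 min. Next came ARG2, of arginine synthesis (0.995), MIF2, of the kinetochore (0.990), PHO8, a vacuolar phosphatase (0.990), and CIA2, of iron-sulfur protein assembly (0.989). Each member's correlation with the mean of the other 5 was 0.99 for HIS1, 0.94 for HIS5, 0.92 for HIS7, 0.89 for HIS4, 0.86 for HIS2 and -0.71 for HIS6. The points share arrays and a time course, so these values describe and do not test.

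Of the 5 regulators measured, 1 rose and 2 fell in WT at 15 min, where 37.2% of probe sets were called higher and 36.5% lower. GCN4, whose activity is set mostly at translation, had group means of 14.49 to 14.70 throughout, as near the top of the range as those of HIS4, and its eco1-W216G differences from WT were 0.14 or less, none called. BAS1 fell in WT from 11.59 ± 0.22 at 0 min to 9.60 ± 0.22 at 15 min (mean ± SD, n = 3), and went back to 11.29 ± 0.59 at 55 min. In eco1-W216G it was 11.14 ± 0.13 at 0 min and 11.18 ± 0.43 at 15 min, 1.57 above WT at 15 min and 1.5 above at 35 min on the log2 scale (adjusted p by limma 5.5e-04 and 6.8e-04), the times at which HIS7 was also higher. PHO2, the partner of Bas1, was lower in eco1-W216G, with differences of -0.94 at 15 min and -0.61 at 35 min (adjusted p 6.8e-04 and 0.017). HIS4, another gene that Bas1 acts on, was not called at those times (differences of 0.08 and 0.07), at a level where a range limit was not tested. A part of BAS1 or PHO2 RNA in the HIS7 difference was not tested. ABF1, a general factor known at the HIS7 promoter, was lower in eco1-W216G at all 4 times (-0.57 to -1.0), and RAP1, known at HIS4, was lower at 0 min (-0.89, adjusted p 0.0017), when HIS4 was higher. A part of ABF1 RNA in the HIS7 difference or of RAP1 RNA in the HIS4 difference was not tested either.

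**Figure D4:**
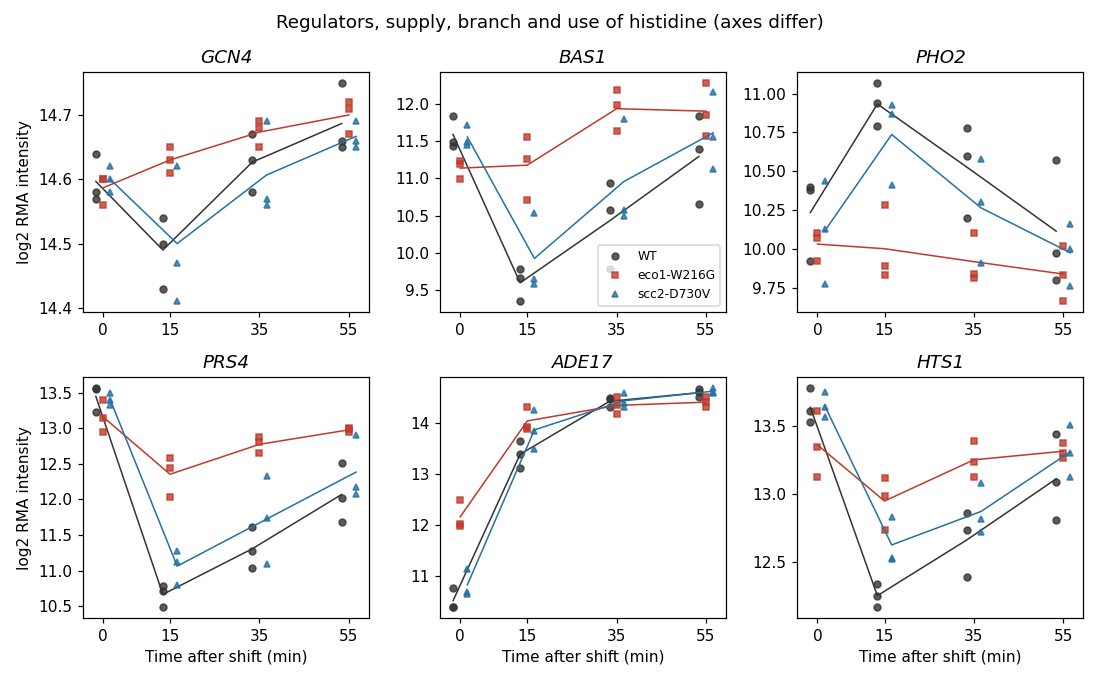
Log2 intensity on each array (y axis, scales differ) against minutes after the shift (x axis) for the regulators GCN4, BAS1 and PHO2, and for PRS4, ADE17 and HTS1, with lines through group means. GCN4 stays within 14.49 to 14.70 in its group means, and ADE17 starts higher in eco1-W216G. At 15 min BAS1 falls in WT and scc2-D730V, and PRS4 falls in every strain, least in eco1-W216G.

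Of the 5 PRS genes, which encode phosphoribosyl pyrophosphate synthetase, 4 fell in WT at 15 min, where 36.5% of all probe sets were called lower, PRS4 by 2.78 and PRS3 by 2.04, while PRS2 was not called (-0.03, adjusted p by limma 0.85). PRS4 read 13.45 ± 0.19 at 0 min and 10.67 ± 0.16 at 15 min in WT, and 13.16 ± 0.22 and 12.35 ± 0.28 in eco1-W216G. At 15 min the same 4 exceeded WT in eco1-W216G by 0.54 to 1.69, and 3 of them at 55 min. Of all probe sets, 18.9% and 17.0% were called higher in these 2 comparisons. ADE17, which uses the AICAR that His7 releases, rose by 2.88 at 15 min and 4.10 at 55 min in WT, and was higher in eco1-W216G at 0 min by 1.65 ± 0.17 (3.14-fold, adjusted p 3.6e-08). Its isozyme gene ADE16 rose by 0.42 at 15 min. HTS1, histidyl-tRNA synthetase, fell by 1.39 in WT at 15 min and was higher in eco1-W216G at 15 and 35 min by 0.70 and 0.59. The histidine permease gene HIP1 fell by 0.82 at 15 min in WT and was not called between strains.

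Other amino acid and purine lists give a scale for these counts. Of 7 arginine genes, 6 rose in WT at 15 min with a median of 1.74, and 4 were higher in eco1-W216G at 0 min (median 0.47). Of 7 lysine genes, 1 rose and 3 fell in WT at 15 min (median -0.46), and 6 were higher in eco1-W216G at that time (median 0.69). Of 7 purine genes, 2 rose and 2 fell in WT at 15 min (median -0.07), 6 were higher at 35 than at 15 min, and 5 were higher in eco1-W216G at 15 min (median 0.66). The medians of all probe sets in these comparisons lay between -0.08 and 0.02. In WT at 15 min 37.2% of probe sets were called higher and 36.5% lower, and 7.63% were higher at 35 than at 15 min. In eco1-W216G against WT 13.7% were called higher at 0 min and 18.9% at 15 min.

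The neighbours of HIS6 and HIS2 were looked at after their own values were seen. HIS6 is transcribed away from FAF1 (YIL019W, chrIX:315093-316133), a gene for ribosomal RNA processing, with 272 bases between their coding regions. FAF1 fell in WT from 10.41 ± 0.31 at 0 min to 5.95 ± 0.40 at 15 min and 5.30 ± 0.24 at 35 min (mean ± SD, n = 3). In eco1-W216G it was at 7.53 ± 0.72 and 8.21 ± 0.37 at these times, above WT in the fit (adjusted p by limma 0.0035 and 3.9e-06). The WT arrays at these times (5.06 to 6.40) lay in the range of MF(ALPHA)1, which these cells do not express, so the size of the difference is not measured. In scc2-D730V at 15 min FAF1 read 6.12, 5.39 and 6.34, overlapping WT within that same range, so whether FAF1 differed there cannot be told. HIS6 in scc2-D730V at 15 min was above WT on every array but not called. It was also not called apart from eco1-W216G (eco1-W216G minus scc2-D730V 0.11 ± 0.19, adjusted p 0.68). The 2 genes thus both fell in all strains, and a part of the intergenic region they share was not tested.

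HIS2 lies on the chromosome of ECO1, 2701 bases away with 2 annotated genes between, so the marked mutant allele and HIS2 are close in eco1-W216G. ECO1 was called lower in eco1-W216G at all 4 times. Its eco1-W216G arrays at 0, 15 and 35 min (5.05 to 6.52), and 2 of 3 at 55 min, lay in the range of the unexpressed MF(ALPHA)1, so the sizes of the differences are not measured and are not set against those of HIS2. ULI1, between them, was higher in eco1-W216G at 0 min by 1.32 ± 0.21 (adjusted p by limma 2.5e-05) and not called at 15, 35 or 55 min (-0.10, -0.22 and -0.23). A part of the inserted marker in the HIS2 difference was not tested, and with 1 eco1-W216G strain the allele and its insertion cannot be told apart.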

How the data were processed

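Total RNA from 3 independent cultures of each strain, sampled at 4 times, was labelled with biotin and hybridised to Affymetrix yeast arrays by the authors, who processed the scans with RMA (background correction, quantile normalization and summary per probe set, per the submitters' processing notes, version not given in the sources used here). The deposited values are linear intensity values from 17.3 to 43883 for 5814 probe sets, and log2 of them was taken here, as the test design foresaw. Control probe sets were left out (51 AFFX and 47 reporter sequences foreign to yeast), so 5716 were tested. GEO's platform annotation gave 5498 of them 1 symbol, 0 several and 218 none, and genes were named by the symbol and the brightest probe set. Coordinates are RefSeq's. 2 of 9 arginine genes and 1 of 8 purine genes on the lists matched no symbol and were not used.

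limma 3.58.1 in R 4.3.3 fitted a coefficient for each of the 12 groups over all 36 arrays (24 residual degrees of freedom), with empirical Bayes moderation and Benjamini-Hochberg adjustment over all tested probe sets within each contrast, called at an adjusted p under 0.05. The calculation was tested on simulated data. The 3 arrays of a group limit the precision, and p-values measure the spread between cultures. The fit treats the times of a culture as independent, and culture as a random block was an alternative. Mutant comparisons share the WT arrays. The members and lists were chosen with earlier results of these data known. The members, regulators, precursor, branch and use genes were named by list, and the 5 alike genes by correlation over group means. Alternatives covered the arrays in the fit, normalization, filtering, variance model, weights, blocks, adjustment, thresholds and leaving out each culture.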

Additional observations from a re-analysis of the deposited data

Results flagged for a closer look

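The response to starvation differed between eco1-W216G and WT by limma's test of the difference of changes from 0 min, on the log2 scale, in 8 values of 4 genes. HIS5 rose less in eco1-W216G, by -0.59, -0.76 and -1.0 at 15, 35 and 55 min. HIS4 rose less, by -0.73 at 55 min, at a level near the top of the data's range. HIS6 fell less, by 0.85 and 0.76 at 15 and 35 min. HIS7 rose more, by 0.77 and 0.66 at 15 and 35 min. Of all probe sets, 17.6%, 19.9% and 15.7% were called higher at 15, 35 and 55 min in this test, and 18.3%, 21.9% and 17.2% lower. Of the 8 values, only that of HIS5 at 55 min was kept without any 1 culture. The 0 min arrays enter every one of these values, and HIS4 and HIS5 were already higher in eco1-W216G at that time. HIS6 was then at -0.34 from WT, not called, and that difference is part of its values.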

How the results depend on the processing

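The 94 gene values (73 of them called) were recomputed under 22 alternatives, which gave 2049 values. Of these, 1917 kept their side of the threshold, 87 lost a call, 45 gained one and 0 changed sign. The counts of members called moved as follows. The shares of all probe sets called under the alternatives are not given. The counts in this section thus show how calls moved and are not set against a background. With only the arrays compared, eco1-W216G minus WT at 35 min gave 2 higher and 0 lower, WT 35 minus 15 min 3 higher, eco1-W216G minus scc2-D730V at 35 min 0 lower, and the difference of changes (eco1-W216G minus WT) 2 lower at 15 and at 35 min. With arrays centred on their medians, eco1-W216G minus WT at 35 min gave 2 higher and 0 lower, eco1-W216G at 55 min 0 lower, and the difference of changes 0 lower at 15 min and 1 at 55 min. Repeated quantile normalization gave 1 higher at 15 min and 0 lower at 35 min for eco1-W216G minus WT. Variance trend with robust moderation gave 2 higher for WT 35 minus 15 min and 2 lower for the difference of changes at 35 min. Array weights gave 2 higher at 35 min, 1 higher and 2 lower at 55 min for eco1-W216G minus WT, 2 and 1 higher at 0 and 15 min for eco1-W216G minus scc2-D730V, 4 higher for WT 35 minus 15 min, and for the difference of changes 2 and 3 lower at 15 and 35 min and 1 higher at 55 min. Adjustment over all contrasts of a kind gave 2 higher for scc2-D730V minus WT at 0 min (HIS4 and HIS5, adjusted p by limma 0.044 and 0.033). It pools the scc2-D730V contrasts with those of eco1-W216G, where far more probe sets were called. These 2 differences were smaller without scc2-D730V replicate 1, as given above. The same adjustment gave 1 higher at 15 min and 0 lower at 35 min for eco1-W216G minus WT, 0 lower for eco1-W216G at 55 min and 4 higher for WT 35 minus 15 min. For the difference of changes it gave 0 lower at 15 min, 0 higher at 35 min and 1 lower at 55 min. An adjusted p under 0.01 gave 1 higher and 0 lower at 15 min and 0 lower at 35 min for eco1-W216G minus WT, 0 lower at 35 min for eco1-W216G minus scc2-D730V, 0 lower for eco1-W216G at 55 min, 0 higher for WT 35 minus 15 min, and for the difference of changes 0 higher and 0 lower at 15 min, 0 higher at 35 min and 1 lower at 55 min. Asking for at least 1.4-fold as well gave 0 lower at 15 and 35 min for eco1-W216G minus WT, 0 lower at 35 min for eco1-W216G minus scc2-D730V and 0 lower for eco1-W216G at 55 min. Beyond the stricter thresholds and the pooled adjustment themselves, the cause was not tested.

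Leaving out each culture in turn gave, for eco1-W216G minus WT, 1 to 2 higher at 0 min, 1 to 2 higher and 0 to 1 lower at 15 min, and 1 to 2 higher and 0 to 1 lower at 35 min. It gave 0 to 2 higher at 0 min, 0 to 1 higher at 15 min and 0 to 1 lower at 35 min for eco1-W216G minus scc2-D730V, 0 to 1 lower for eco1-W216G at 35 and at 55 min, and 0 to 3 higher for WT 35 minus 15 min. For the difference of changes it gave 0 to 2 higher and 0 to 2 lower at 15 and at 35 min, and 0 to 1 higher and 1 to 3 lower at 55 min.

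With the replicate number as a block, 3 members were higher for WT 35 minus 15 min, 2 were higher for eco1-W216G minus WT at 35 min (HIS6 joining, adjusted p by limma 0.041), and the difference of changes gave 2 lower at 35 min (HIS4 joining, 0.0485) and 1 higher at 55 min (HIS6, 0.047). HIS2 also joined the lower ones at 55 min (0.0385). No member lost a call under the replicate block, and no other gained one beyond HIS1 and HIS5 for WT 35 minus 15 min. The labels do not say that arrays of 1 number are paired, and the main fit leaves such a pairing out. Over strains at 1 time, 21 of 24 same-numbered pairs had a residual correlation over 0.1 (range -0.14 to 0.84). Over times within a strain it was 40 of 54 (range -0.29 to 0.88). With 3 WT arrays to match at each time, 20 of 24 mutant arrays correlated best with the WT array of their own number. That is a hint of pairing from the data and not from the design. With culture as a random block (correlation 0.244), 4 were higher for WT 35 minus 15 min, and the difference of changes gave 2 lower at 15 and at 35 min and 1 higher at 55 min. A replicate block within strain, chosen after seeing the data, gave 3 higher for WT 35 minus 15 min. Keeping the 47 reporter probe sets, also chosen after seeing the data, and leaving out the dimmest probe sets (mean log2 under 9.94) moved no count by over 1.5 times. Averaging several probe sets of a gene could not be run, since each member has 1. The 3 arrays a group limit the resolution, with SEs of 0.09 to 0.19 for differences between groups.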
